A study of Mus musculus with 8 samples.

Results

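NFIA-overexpressing cells of secondary neurospheres were compared with control cells of primary neurospheres, the far ends of a series that runs from neurogenic to gliogenic cultures. The comparison used 4 of the 8 samples of the study, chosen by their titles, with 2 arrays a side, and the other 4 samples served to ask how much of each difference was more than the sum of NFIA and passage. The control cells (PN_control) came from primary neurospheres at passage 0 and day 6 of culture, and the NFIA cells (SN_NFIA) from secondary neurospheres at passage 1 and day 12. The intermediate groups were NFIA cells of primary neurospheres (PN_NFIA) and control cells of secondary neurospheres (SN_control), with 2 arrays each. All 4 groups were neural stem and progenitor cells derived from mouse embryonic stem cells. NFIA and control cells grew together in mixed spheres and were parted by fluorescence activated cell sorting before RNA was taken. The labels do not name the promoter that drives NFIA, the number of clones or the strain, and do not say whether replicate arrays came from separate cultures, so the tests measure the spread between these arrays, which may be technical.

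NFIA is a transcription factor of the nuclear factor I family, which binds DNA as a dimer and recognises the sequence TTGGCA. In the embryonic central nervous system progenitors first make neurons and later make astrocytes and oligodendrocytes, and NFIA, induced by SOX9, takes part in the start of the glial phase. Cells from embryonic stem cells follow a like order in culture, in which early spheres give mainly neurons and spheres that have been passaged give more glia.

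Signals are given as levels, meaning log2 of the signal relative to the 75th percentile of the array, so that a level of 0 lies at that percentile. Per array, 45.38% to 56.44% of spots passed the scanner software's test of being well above background, 0 spots were saturated, and 13790 genes entered the tests. Differences are SN_NFIA minus PN_control in log2 ± SE from limma, with p adjusted over all 13790 genes by the Benjamini-Hochberg method, and a gene is said to have risen or fallen where its adjusted p was under 0.05. Levels of different genes come from different probes and are not set against each other. Scanner files of 7 samples held the array that the value table of the authors lists under another sample, and array identity here follows the value table. With the scanner files taken as attached to the samples, 0 genes rose and 0 fell, and with groups from the source names, which conflict with the titles for all 4 control arrays, PN_NFIA 1 and SN_NFIA 2, 0 rose and 0 fell. By the value table PN_control and SN_NFIA lie in different rows and columns of the slide, so position on the slide and the comparison cannot be told apart. In such bulk samples, fewer cells of a type and less RNA per cell cannot be told apart either.

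Nfia (chr4:97578066-98118876 in GRCm38.p6), the overexpressed gene, had levels of -1.31 and -0.31 in PN_control and of 1.70 and 1.64 in SN_NFIA. The groups did not overlap, and the level was higher by 2.48 ± 0.47 (adjusted p = 0.0188). Its other kept probe was higher by 2.86 ± 0.63. Whether either probe lies in the introduced sequence is not known. SN_control arrays, at 0.98 and 0.62, were also above PN_control, so the difference held an NFIA part of 1.01 and a passage part of 1.47. The other family members rose as well: Nfix by 6.42 ± 0.70 (well above background in 1 of 2 PN_control arrays), Nfib by 2.57 ± 0.55 and Nfic by 2.50 ± 0.35, with 2.16 ± 0.29 and 1.31 ± 0.28 at its other probes (4 of 4 measured genes rose; adjusted p between 0.00441 and 0.0265). Without PN_control 1, 1 of the 4 passed the test, and without SN_NFIA 1, 2 did. The neural stem cell gene Sox2 was well above background on all 8 arrays and differed by 0.09 ± 0.30. Nes, which encodes the intermediate filament nestin of neural progenitors, was well above background on all 8 arrays too and differed by -1.06 ± 0.61 (adjusted p = 0.29).

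Between the far ends 1102 genes rose (7.99% of those tested) and 863 fell (6.26%), against 1986 and 2253 at an unadjusted p under 0.05. The median over all genes was -0.12. Of the genes that rose, 668 differed by over 2 in log2 and 173 by over 4; of those that fell, 300 and 43. Among fits with 1 array left out, the counts were lowest without a PN_control array, which leaves 1 array in that group. The cause was not tested. Without PN_control 1 the counts were 263 and 93, and without PN_control 2 they were 256 and 136. Without SN_NFIA 1, 436 genes fell, and without SN_NFIA 2, 344 did; without PN_NFIA 1 and PN_NFIA 2, which enter only through the shared estimate of spread, 524 and 514 fell.

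Scrg1, a gene of glia and cartilage, stood at -6.66 and -6.06 in PN_control, where it was not well above background, and at 3.58 and 6.22 in SN_NFIA (adjusted p = 0.0208). For such genes the fold is given as a lower bound, with the dim side set, array by array, to the faintest signal that still counted as well above background there. On that basis Scrg1 was at least 604-fold higher. Ecrg4, which encodes a secreted peptide of choroid plexus, stood at -4.19 and -6.27 in PN_control and at 4.43 and 5.04 in SN_NFIA, at least 504-fold higher (adjusted p = 0.005). Bcan encodes brevican, a proteoglycan of the brain matrix made by glia. It was above background on every array, with -1.98 and -0.73 in PN_control and 5.83 and 8.05 in SN_NFIA, and rose by 8.29 ± 1.14 (adjusted p = 0.00767). Its other probe rose by 5.94 ± 0.75.

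Myh8, a myosin heavy chain gene, rose by 8.23 ± 0.56, from -4.16 and -2.98 to 4.60 and 4.73 (adjusted p = 0.00145), and by 6.13 ± 0.48 at its other probe. All of the other 8 genes among the 12 largest increases were dim in both PN_control arrays. The 12 were ranked on the log2 difference, which for the 10 dim genes rests on PN_control values not well above background, so their order, and their place above genes such as Sparcl1 and Ifi27, is not a measured one. Itih3, a gene of hyaluronan-binding serum proteins, was at least 80.9-fold higher, Ibsp, for the bone matrix protein integrin-binding sialoprotein, at least 57.1-fold, and Fgf1, for a fibroblast growth factor, at least 78-fold. Ccdc80, whose product is a matrix protein, was at least 88.7-fold higher, and Mgp, for matrix Gla protein, at least 65.1-fold. The cytochrome P450 gene Cyp1b1 was at least 154-fold higher, and Il33, a cytokine gene expressed by astrocytes and oligodendrocytes of the brain, at least 33.3-fold. Dcpp3 was at least 40.2-fold higher; it belongs to a family of close copies, so its probe may read several of them. Adjusted p of these 8 genes lay between 0.00123 and 0.0153. Without PN_control 1, 5 of the 12 genes missed the test (Scrg1, Bcan, Itih3, Dcpp3 and Il33, adjusted p between 0.0568 and 0.116). Without PN_control 2, Scrg1, Itih3 and Il33 did. Without SN_NFIA 2, Scrg1 and Itih3 did, and without SN_NFIA 1, Scrg1 did (adjusted p = 0.0512).

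**Figure D1:**
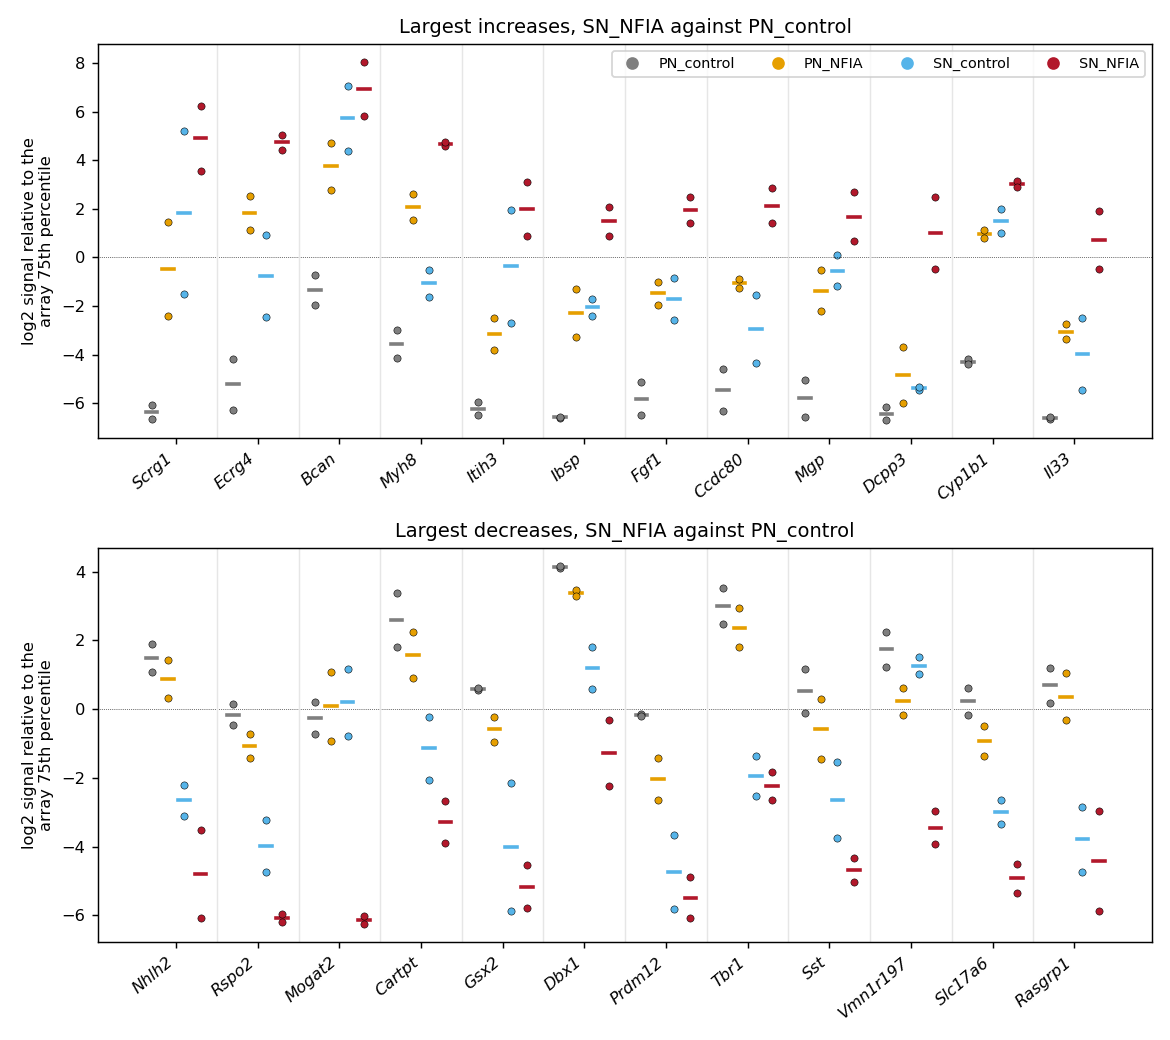
Levels of the 12 genes that rose most (upper panel) and the 12 that fell most (lower panel), as log2 signal relative to the 75th percentile of the array, with a point for each of the 2 arrays of a group and a bar at the mean. For Scrg1 the PN_control points lie at -6.66 and -6.06 and the SN_NFIA points at 3.58 and 6.22. The groups at the far ends are apart for all 24 genes because the choice of genes required it. They are also apart for all 1102 genes that rose and all 863 that fell.

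Promoter windows of leading genes are shown because NFI binds a short known sequence. The windows run from 250 bases before to 50 after the annotated start and come from RefSeq (GRCm38.p6). The letters TTGGCA were searched on both strands, where the opposite strand reads TGCCAA. They stood in 11.7% of the 14029 windows of tested genes, in 17.6% of the 1079 windows of genes that rose and in 11.9% of the 843 windows of genes that fell. Over all 32851 windows, tested genes or not, the share was 14.1%. For the list of astrocyte genes it was 12.2% of 41 windows. These shares were not tested against each other. Windows were found for 841 of the 1102 and 667 of the 863 genes. Of the 12 largest increases 8 had a window, and 4 of them held a match in at least 1 window; Il33 has another annotated start, whose window held 0 matches. Of the 12 largest decreases 10 had a window, and 0 held a match. A match is a run of letters and not a measured site. Only the 4 windows with a match follow, in the direction of the gene, with matches in capitals.
Myh8, chr11:67276874-67277173, plus strand: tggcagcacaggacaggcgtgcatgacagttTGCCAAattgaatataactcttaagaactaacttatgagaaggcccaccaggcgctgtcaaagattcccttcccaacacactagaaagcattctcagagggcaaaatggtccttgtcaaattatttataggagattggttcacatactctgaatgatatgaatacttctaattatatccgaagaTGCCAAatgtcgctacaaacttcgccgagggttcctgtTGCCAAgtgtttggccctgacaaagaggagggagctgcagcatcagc
Il33, chr19:29924863-29925162, plus strand: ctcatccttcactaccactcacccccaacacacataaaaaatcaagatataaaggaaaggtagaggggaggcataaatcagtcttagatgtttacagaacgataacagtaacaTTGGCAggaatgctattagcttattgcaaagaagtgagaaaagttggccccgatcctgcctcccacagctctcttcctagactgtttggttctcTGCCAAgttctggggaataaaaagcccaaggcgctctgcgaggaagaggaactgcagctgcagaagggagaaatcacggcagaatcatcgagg
Dcpp3, chr17:23917208-23917507, plus strand: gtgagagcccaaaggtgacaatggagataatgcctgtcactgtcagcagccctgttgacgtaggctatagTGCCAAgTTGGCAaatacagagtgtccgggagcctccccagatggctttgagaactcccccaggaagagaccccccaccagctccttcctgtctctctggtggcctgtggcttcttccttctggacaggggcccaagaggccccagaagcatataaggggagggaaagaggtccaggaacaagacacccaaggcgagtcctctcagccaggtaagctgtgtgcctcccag
Ibsp, chr5:104299037-104299336, plus strand: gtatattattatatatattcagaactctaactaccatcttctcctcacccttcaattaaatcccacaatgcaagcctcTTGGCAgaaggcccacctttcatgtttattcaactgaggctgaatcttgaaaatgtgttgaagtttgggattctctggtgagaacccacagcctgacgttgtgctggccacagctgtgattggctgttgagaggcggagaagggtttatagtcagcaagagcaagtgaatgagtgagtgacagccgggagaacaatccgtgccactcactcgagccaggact
STAT factors, which act downstream of gp130 cytokine receptors in astrocyte formation, bind TTCNNNGAA. These letters stood in 6.81% of windows of tested genes, 6.77% of windows of genes that rose and 5.34% of windows of genes that fell. The window of Gfap is shown because it holds such a match, in capitals, and no TTGGCA.
Gfap, chr11:102897151-102897450, minus strand: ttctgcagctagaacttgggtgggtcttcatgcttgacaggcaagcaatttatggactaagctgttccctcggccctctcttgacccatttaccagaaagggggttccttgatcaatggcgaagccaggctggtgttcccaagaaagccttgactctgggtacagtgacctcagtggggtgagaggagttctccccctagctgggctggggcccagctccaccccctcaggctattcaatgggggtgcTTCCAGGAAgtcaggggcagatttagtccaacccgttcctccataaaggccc

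Nhlh2, a neuronal basic helix-loop-helix gene, fell by 6.28 ± 0.84, from 1.90 and 1.09 in PN_control to -3.51 and -6.07 in SN_NFIA (adjusted p = 0.00743). Dbx1, a homeobox gene of interneuron progenitors, fell by 5.41 ± 0.65, from 4.10 and 4.17 to -0.32 and -2.22. Tbr1, a T-box factor of cortical glutamatergic neurons, fell by 5.23 ± 0.60, and its other probe by 4.35 ± 0.55. The neuropeptide gene Cartpt fell by 5.87 ± 0.83. Rasgrp1, for a guanine nucleotide exchange factor of Ras, fell by 5.10 ± 1.05. Vmn1r197 fell by 5.19 ± 0.49; it is a vomeronasal receptor gene of a family with close copies. Nhlh2, Cartpt, Rasgrp1 and Vmn1r197 were well above background in 1 of the 2 SN_NFIA arrays, so the size of their fall rests in part on a dim value.

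Of the 12, 6 genes were not well above background in either SN_NFIA array. The Wnt agonist gene Rspo2 was at least 13.2-fold lower, and the homeobox gene Gsx2 of ventral forebrain progenitors at least 22.1-fold. Prdm12, a gene of sensory neuron formation, was at least 13.1-fold lower, the neuropeptide gene Sst, for somatostatin, at least 21.2-fold, and Slc17a6, the vesicular glutamate transporter gene of excitatory neurons, at least 17.2-fold. Mogat2, an acyltransferase gene of fat absorption, was lower by a factor of at least 12.3. Mogat2 differed from the rest of these 6 genes in its steps: it stood between -0.91 and 1.17 on all 6 other arrays and at -6.25 and -6.01 in SN_NFIA. Of the 12, Vmn1r197 had a like shape, between -0.16 and 2.25 on the 6 other arrays and at -2.97 and -3.92 in SN_NFIA. Without PN_control 1, 7 of the 12 genes missed the test (Nhlh2, Mogat2, Cartpt, Gsx2, Prdm12, Sst and Rasgrp1, adjusted p between 0.0548 and 0.141). Without PN_control 2, Gsx2, Prdm12, Sst and Rasgrp1 did, without SN_NFIA 2, Sst and Rasgrp1 did, and without SN_NFIA 1, Gsx2 did.

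Of 40 measured astrocyte genes 26 rose and 0 fell, with a median difference of 3.04 against -0.12 over all genes. With normexp background correction the median of the list was 1.85. Without PN_control 1, PN_control 2 and SN_NFIA 2 the count was 6, 7 and 11. Sparcl1, which encodes a secreted synapse-forming protein of astrocytes, stood at 2.53 and 2.27 in PN_control and at 8.25 and 8.83 in SN_NFIA and rose by 6.14 ± 0.74 (adjusted p = 0.00525). Tnc, for the matrix protein tenascin C, was at least 42.4-fold higher (adjusted p = 0.00291). The metalloprotease inhibitor gene Timp3 rose by 3.05 ± 0.40, and Aldoc, a glycolytic enzyme gene of astrocytes, by 5.01 ± 0.85. Slc1a3, a glutamate transporter gene of radial glia and astrocytes, rose by 2.98 ± 0.48.

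Markers of later astrocytes were less uniform. Gfap, the intermediate filament gene of astrocytes, was well above background only in the SN_NFIA arrays, at -3.27 and -0.34, and was at least 5.8-fold higher than in PN_control (adjusted p = 0.0195). S100b, a calcium-binding protein gene of mature glia, stood at -6.44 and -6.54 in PN_control and at 0.85 and 4.16 in SN_NFIA, with a wide spread also in SN_control (-4.28 and 5.08), and did not pass (adjusted p = 0.0677). The water channel gene Aqp4 stood at -1.43 and 2.64 in SN_NFIA and did not pass (adjusted p = 0.188). Slc1a2, the glutamate transporter gene of mature astrocytes, differed by -0.57 ± 0.56 (adjusted p = 0.533). In the summed signal of the 40 genes, in units of the 75th percentile, PN_control lay at 291 and 231, PN_NFIA at 565 and 728, SN_control at 377 and 748 and SN_NFIA at 1130 and 2080. Both SN_NFIA arrays were above all 6 others for 25 of the 40 genes; over all genes that share was 11.4%.

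Genes of the early glial program around SOX9 rose in 3 of 5 measured members (1 of 5 without either PN_control array or without SN_NFIA 2). Zcchc24 rose by 4.30 ± 0.39 and Mmd2 by 4.71 ± 0.97, while Sox9 itself, the partner factor of NFIA, differed by 0.93 ± 0.27 (adjusted p = 0.0635). Of 17 genes of gp130 cytokine receptors, JAK kinases and STAT factors, the pathway that switches on astrocyte genes, 8 rose and 0 fell (median 1.20). The receptor genes Il6ra, Il6st and Lifr rose by 2.76 ± 0.37, 1.49 ± 0.25 and 2.14 ± 0.40 (Lifr 1.71 ± 0.42 and 1.29 ± 0.49 at its other probes), Stat3 by 1.66 ± 0.38 and the downstream factor gene Cebpd by 3.02 ± 0.46. Without either PN_control array 1 of the 17 passed, and without PN_NFIA 2, SN_NFIA 1 and SN_NFIA 2, 5, 5 and 3 did. Of 21 BMP pathway and ID genes 4 rose and 0 fell. Smad9, a BMP signal transducer gene, was at least 2.73-fold higher (adjusted p = 0.00145), the ligand genes Bmp5 and Bmp2 rose by 2.46 ± 0.24 and 1.87 ± 0.36, and Id3, a BMP target that blocks proneural factors, rose by 1.54 ± 0.24. Without either PN_control array 2 of the 21 passed.

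Of 28 extracellular matrix and adhesion genes 14 rose and 0 fell (median 1.58; 9 and 6 rose without PN_control 1 and 2). Of the collagen VI genes, Col6a1 rose by 4.69 ± 0.34, and Col6a2 was at least 14-fold higher (adjusted p = 0.00145). Thbs2, for thrombospondin 2, was at least 14.6-fold higher. Of 17 immediate early genes 4 rose and 0 fell (median 1.81; 0 and 1 rose without PN_control 1 and 2, and 2 without SN_NFIA 2). They were Fosl2 at 3.95 ± 0.52, Nr4a1 at 3.19 ± 0.72, Klf4 at 1.81 ± 0.29 and Junb, at least 2.24-fold. The other probe of Fosl2 differed by 0.69 ± 0.74. Of 18 retinoid genes 6 rose and 0 fell, among them the retinol carrier gene Rbp4 by 4.52 ± 0.67, the receptor gene Rxrg by 3.97 ± 0.72 (1.05 ± 0.46 at its other probe) and the retinoic acid synthesis genes Aldh1a3 and Aldh1a2, each dim in 1 of 2 PN_control arrays, by 3.82 ± 0.46 and 2.91 ± 0.40. Without PN_control 1, PN_control 2, SN_NFIA 1 and SN_NFIA 2, 2, 1, 4 and 3 retinoid genes rose.

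Oligodendrocyte lineage genes had a median difference of 3.04, close to that of the astrocyte list, but 2 of 16 measured genes rose and 1 fell. Olig1, a lineage factor gene, rose by 4.79 ± 1.01, and Cspg4, for the NG2 proteoglycan, was at least 11.9-fold higher; without either PN_control array or without SN_NFIA 2, 0 rose, and without SN_control 1 and 2, 5 and 8 did. The gap between replicate arrays was wide. Sox10, a lineage factor gene, stood at -3.22 and -2.71 in PN_control, at -0.60 and 3.11 in SN_NFIA and at -0.37 and 3.90 in SN_control. Replicate 2 of both secondary groups was thus the high array. Olig2 and Pdgfra, of oligodendrocyte progenitors, differed by 2.98 ± 0.91 (adjusted p = 0.0731) and 3.49 ± 0.94 (adjusted p = 0.0516). The summed signal of the 16 genes was 21.3 and 22.6 in PN_control, 17.5 and 20.8 in PN_NFIA, 28.5 and 716 in SN_control and 30.3 and 185 in SN_NFIA. The part of these genes in results that differ between the SN_NFIA arrays was not tested. Mbp, whose gene also gives transcripts outside myelin, fell by 2.36 ± 0.31, and its other 2 probes differed by 2.17 ± 2.44 and -3.14 ± 0.40.

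Of 24 proneural and neurogenic progenitor genes 8 fell and 0 rose (median -2.02). Eomes, a T-box gene of intermediate cortical progenitors, stood at 1.58 and 1.17 in PN_control and at -2.56 and -3.05 in SN_NFIA and fell by 4.18 ± 0.40. The neuronal differentiation factor gene Neurod2 fell by 3.28 ± 0.39, and Elavl4, for a neuronal RNA-binding protein, by 3.34 ± 0.47. The proneural gene Neurog2, well above background in 1 of 2 SN_NFIA arrays, differed by -4.33 ± 1.26 (adjusted p = 0.0652), and the Notch ligand gene Dll1 by -0.97 ± 0.31 (adjusted p = 0.0825). Without either PN_control array 3 of the 24 fell.

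Of 46 neuronal genes 16 fell and 1 rose (median -1.53). Stmn4, for a microtubule regulator of neurons, stood at 6.96 and 7.10 in PN_control and at 4.06 and 3.48 in SN_NFIA and fell by 3.26 ± 0.29, with 3.27 ± 0.32 at its other probe. Stmn2 of the same family fell by 2.96 ± 0.47 and Tubb3, the neuronal tubulin gene, by 2.47 ± 0.61 (adjusted p = 0.0414). Syt4, a synaptotagmin gene of secretory vesicles, was at least 7.21-fold lower. Dcx, a gene of migrating neurons, differed by -0.91 ± 0.47 (adjusted p = 0.237), Map2 by 0.05 ± 0.37 and the synaptic gene Snap25 by 1.00 ± 0.44 (adjusted p = 0.179), so that the list did not move as a block. Without PN_control 1, PN_control 2, SN_NFIA 1 and SN_NFIA 2, 6, 4, 11 and 8 of the 46 fell; without PN_NFIA 1 and 2, 10 and 9 did, and without SN_control 2, 25 did.

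LIN28 proteins hold back let-7 microRNAs in early progenitors, and HMGA and IMP genes are let-7 targets. Of 14 genes of that axis 8 fell and 0 rose (median -1.98). Lin28b stood at 3.90 and 3.06 in PN_control and at 0.23 and -0.82 in SN_NFIA and fell by 3.78 ± 0.54. Igf2bp2, for an RNA-binding protein, fell by 1.59 ± 0.24 and Arid3b, a let-7 target gene, by 2.22 ± 0.39 (-0.88 ± 0.74 and -1.98 ± 0.61 at its other probes), while Dusp9, for a MAP kinase phosphatase, was at least 3.73-fold lower. Hmga2 differed by -1.28 ± 0.60 (adjusted p = 0.196). Without PN_control 1, PN_control 2, SN_NFIA 1 and SN_NFIA 2 the count was 0, 1, 4 and 2.

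Cell cycle genes all pointed down: 32 of 32 measured had a negative difference, 20 fell and 0 rose (median -1.36). Ccna2, the cyclin A gene, stood at 4.0 and 3.65 in PN_control and at 1.99 and 1.98 in SN_NFIA and fell by 1.84 ± 0.26. Ccnd1, for cyclin D1, fell by 2.12 ± 0.31, the replication helicase gene Mcm3 by 2.21 ± 0.33, the mitotic kinesin gene Kif11 by 1.98 ± 0.29 and Mki67, the proliferation marker, by 1.32 ± 0.23. Among 7 CDK inhibitors the directions split. Cdkn2b, for p15, was at least 14.1-fold higher (3.02 ± 0.46 in log2 at its other probe) and Cdkn2a, for p16 and p19ARF, rose by 2.89 ± 0.70, while Cdkn1a, for p21, fell by 1.92 ± 0.30 and Cdkn1c, for p57, by 2.64 ± 0.48; without PN_control 1, 1 rose and 0 fell, without PN_control 2, 1 rose and 1 fell, and without any 1 of the NFIA arrays 1 rose. Without PN_control 1, PN_control 2, SN_NFIA 1 and SN_NFIA 2, 0, 3, 8 and 6 of the 32 cell cycle genes fell.

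Regional identity genes of the forebrain pointed down, with 16 of 17 negative, 3 that fell and 0 that rose (median -2.32; 0 and 1 fell without PN_control 1 and 2, 6 without either SN_control array and 1 without SN_NFIA 1). Fezf1 and Fezf2, zinc finger genes of the forebrain, fell by 4.82 ± 0.70 and 4.33 ± 0.89, with 1 of 2 SN_NFIA arrays well above background for each, and the LIM homeobox gene Lhx2 by 3.26 ± 0.80. Of 22 midbrain, hindbrain and HOX genes 0 passed the test in limma (median 1.12; 14 positive and 8 negative). Among 20 dorsoventral genes Dbx2 rose by 4.41 ± 0.98 while its paralogue Dbx1 fell, and the dorsal factor gene Pax3 fell by 3.28 ± 0.79. Olig3, another dorsal factor gene, fell by 4.23 ± 1.11. Olig3 was well above background in 1 of 2 SN_NFIA arrays. Without either PN_control array 0 of the 20 rose and 1 fell; without SN_NFIA 1, 0 rose, without SN_NFIA 2, 0 rose and 1 fell, and without SN_control 2, 2 rose.

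In the list of neural stem cell and radial glia genes 3 of 22 rose and 2 fell (median 0.12). The homeobox gene Pax6 fell by 2.60 ± 0.32 and the POU factor gene Pou3f2 by 2.37 ± 0.41, whereas Slc1a3 and Ddah1, for an enzyme of methylarginine breakdown, rose, the latter by 1.88 ± 0.40. Fabp7, the fatty acid binding protein gene of radial glia, differed by 1.80 ± 0.50 (adjusted p = 0.0582). Without either PN_control array or SN_NFIA 2, 0 rose and 1 fell, and without SN_NFIA 1, 5 rose. Of 19 Notch pathway genes 4 rose and 3 fell. The effector genes Hey2 and Heyl were at least 2.68-fold and 10.3-fold higher, while the ligand genes Jag2 and Dll3 fell by 1.73 ± 0.25 and 2.05 ± 0.34. The effector Hes5, a main Notch target in progenitors, differed by -0.25 ± 0.37 and Hes1 by 0.76 ± 0.35 (adjusted p = 0.195). Without PN_control 1, 0 Notch genes rose and 1 fell, and without PN_control 2, 1 rose and 0 fell. Without SN_NFIA 1, 1 rose, and without SN_NFIA 2, 1 fell.

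Other signalling and metabolic lists split or moved little. Of 34 Wnt pathway genes 3 rose and 4 fell, among them Wif1, a secreted Wnt inhibitor gene, by 5.63 ± 0.79, Dkk2, another secreted modulator, by 2.23 ± 0.34, and Wnt7b, a ligand gene, which fell by 2.48 ± 0.35; without PN_control 1, 1 rose and 2 fell, and without PN_control 2, 2 rose and 1 fell. Without either SN_control array 5 rose, and without either PN_NFIA array or SN_NFIA 1, 2 fell. Of 15 interferon response genes 2 rose and 1 fell: Ifi27 rose by 6.05 ± 0.41, Rsad2 was at least 3.99-fold higher, and H2-K1, a class I histocompatibility gene, fell by 2.55 ± 0.29, against -1.30 ± 0.39 at its other probe. Of the 15, 1 rose without either PN_control array and 4 without SN_NFIA 1. Of 23 hypoxia and glycolysis genes 6 fell and 1, Aldoc, rose. The glucose transporter genes Slc2a3 and Slc2a1 fell by 3.20 ± 0.55 and 2.81 ± 0.50, and 0 fell without either PN_control array or without SN_NFIA 1, and 3 without SN_NFIA 2. Of 10 DNA methylation genes Uhrf1, which recruits the maintenance enzyme, fell by 1.94 ± 0.35, the de novo enzyme gene Dnmt3b by 1.47 ± 0.38, and the methyl-binding protein gene Mbd2 rose by 1.21 ± 0.22. Another Mbd2 probe differed by 0.10 ± 0.25, and without either PN_control array or SN_NFIA 2, 0 of these 10 passed.

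Markers of cells other than neural cells moved with the comparison, and their part in the results above was not tested. Of 22 mesenchymal and mural genes 8 rose and 1 fell (median 1.56; 4 rose without either PN_control array or without SN_NFIA 2). Col1a1, a collagen I gene, stood at -2.48 and -2.44 in PN_control and at 1.99 and 2.37 in SN_NFIA and rose by 4.64 ± 0.51, Dcn, for decorin, rose by 4.64 ± 0.61 and the mural receptor gene Pdgfrb by 2.42 ± 0.34. The summed signal of the list was 29.1 and 19.7 in PN_control, 61.2 and 56.7 in PN_NFIA, 94.6 and 155 in SN_control and 95.8 and 112 in SN_NFIA. Of 24 pluripotency genes 9 fell and 2 rose (median -1.04; 0 fell and 0 rose without either PN_control array, and 4 fell without SN_NFIA 1), among them Esrrb by 2.16 ± 0.32, Dppa5a by 2.98 ± 0.56 and Zfp42 by 2.28 ± 0.57; Pou5f1, for OCT4, differed by -1.67 ± 0.55 (adjusted p = 0.088). Their summed signal was 53.1 and 56.3 in PN_control and 17.8 and 40.9 in SN_NFIA. Of 17 epithelial genes 5 fell and 0 rose. Dsg1c fell by 4.67 ± 0.50 and the E-cadherin gene Cdh1 by 1.94 ± 0.33, while Cldn6 and Krt8 were at least 2.31-fold and 4.69-fold lower; their summed signal was 28.3 and 22.2 in PN_control and 22.9 and 17.6 in SN_NFIA, and 1 and 2 genes fell without PN_control 1 and 2, and 3 and 2 without SN_NFIA 1 and 2. Of 11 endoderm genes 3 rose (Sox7, at least 3.31-fold, Col4a1 and Cubn), with summed signals of 34.8 and 34.6 in PN_control and 38.3 and 23.3 in SN_NFIA; without PN_control 2, 1 rose.

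Of 20 blood, endothelial and microglial genes 9 were measured and 2 rose, Runx1 (at least 4.29-fold) and Emcn (at least 2.65-fold), with summed signals of 26.3 and 31.4 in PN_control and 32.9 and 70.4 in SN_NFIA; without PN_control 2, 1 rose. Their defining genes Ptprc, Aif1 and Cdh5 did not pass the filter on dim probes, and neither did Afp and Gata4 of the endoderm list or Krt5 of the epithelial list. Of 11 ependymal and choroid plexus genes 2 rose, Ecrg4 and the chloride channel gene Clic6 (3.70 ± 0.65), with summed signals of 67.5 and 76.7 in PN_control and 67.1 and 56.8 in SN_NFIA; without either PN_control array 1 rose. The 3 measured Y-linked genes fell, also without each of the 8 arrays in turn. Eif2s3y stood at 2.81 and 3.01 in PN_control, 1.46 and -0.28 in PN_NFIA, 2.07 and 1.90 in SN_control and -1.97 and -1.48 in SN_NFIA and fell by 4.63 ± 0.53; Ddx3y was at least 15.8-fold and Uty at least 5.39-fold lower. If control and NFIA cells are the different lines that the source names give, a difference between lines and NFIA cannot be told apart in any result here.

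The difference between the far ends is, for each gene, the sum of an NFIA part, the mean of NFIA minus control at both passages, and a passage part, the mean of secondary minus primary in both cell types. This split was added after the data had been seen, and the parts share arrays with the difference, so it describes where a difference lies and tests nothing. Among the 1102 genes that rose the NFIA part was a median of 50.1% of the difference (quartiles 38.5% and 60.6%), with a median NFIA part of 1.14 and a median passage part of 1.13. Among the 863 genes that fell it was 36.6% (quartiles 28.8% and 45.5%), with medians of -0.63 and -1.07. The passage part was the larger for 544 of the 1102 and for 717 of the 863. NFIA minus control and secondary minus primary can be set against each other through PN_NFIA minus SN_control, which uses none of the 4 arrays of the far ends; 5 genes of 13790 passed that test. The count changed when 1 array of either group was left out. Those fits also applied the filter on dim probes anew, so genes high on the 1 SN_control array left could enter through it.

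The lists differed in how their parts compared. Astrocyte genes had medians of 1.36 in the NFIA part and 1.68 in the passage part, immediate early genes 1.33 and 0.47, and retinoid genes 0.85 and 0.32. Oligodendrocyte genes had -0.03 and 2.87, forebrain genes -0.55 and -1.43 and LIN28 axis genes -0.71 and -1.33. Rbp4 lay almost wholly in the NFIA part (3.98 of 4.52), as did Clic6 (3.22 of 3.70), while Wif1 had parts of 4.17 and 1.46. Tbr1 lay almost wholly in the passage part (-4.77 of -5.23), and Olig1 likewise (4.17 of 4.79).

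**Figure D2:**
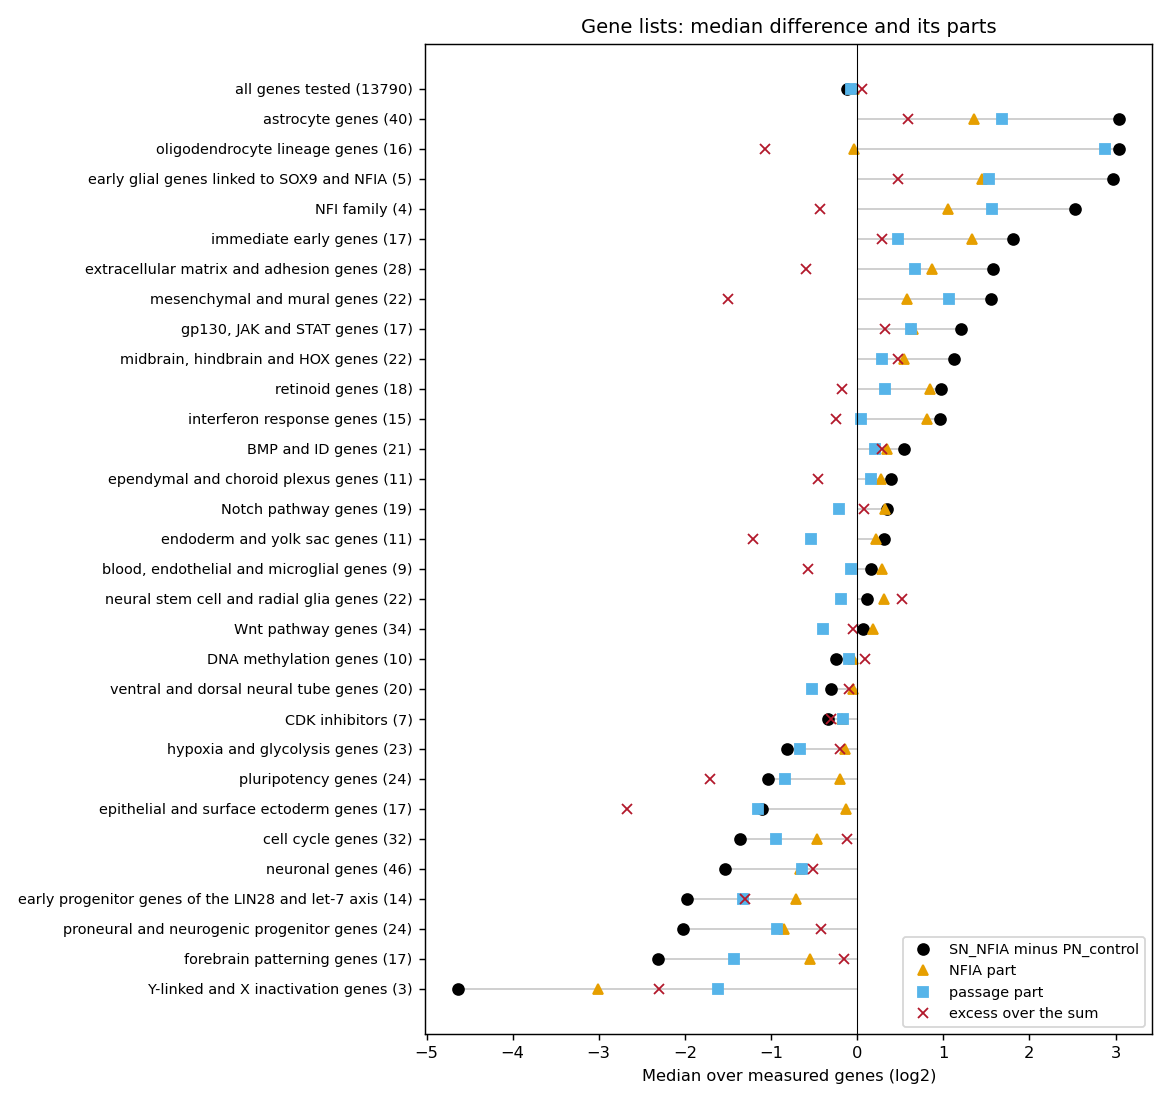
Median over the measured genes of each list, with the number of genes in brackets, for SN_NFIA minus PN_control (black circles), its NFIA part (triangles), its passage part (squares) and the excess over the sum (crosses), in log2. Astrocyte genes have a median difference of 3.04 with parts of 1.36 and 1.68, oligodendrocyte genes one of 3.04 with parts of -0.03 and 2.87, and epithelial genes have the lowest excess, -2.67.

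Whether the combination gave more than the sum of its steps was asked with the excess, the difference between SN_NFIA and PN_control minus the sum of PN_NFIA minus PN_control and SN_control minus PN_control. On the log2 scale an excess of 0 means that the folds multiply. The excess passed the test in limma for 0 of 13790 genes (0% above and 0% below; smallest adjusted p = 0.0725), with 372 above (2.7%) and 537 below (3.89%) at an unadjusted p under 0.05. Its median SE was 0.47, against 0.33 for the difference between the far ends. Counts with 1 array left out follow, but each such fit applied the filter on dim probes anew. Without SN_control 1, 12 genes lay above and 441 below the sum at an adjusted p under 0.05, and without SN_control 2, 6 and 74; 2 genes above (Id3 and Cacng5) and 15 below did so in both. Without SN_NFIA 1 the counts were 2 and 0, without SN_NFIA 2 they were 11 and 2, and without each PN array 0 and 0. A fit without an array of a group assumes that the array left varies like those of the other groups. A gene also entered such a fit if well above background on the 1 array left. Most genes below the sum without an SN_control array were not among the 13790. Genes let in by an SN_control array are high there, which by itself lowers the excess. Those counts therefore cannot tell a departure from the sum from the filter.

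**Figure D3:**
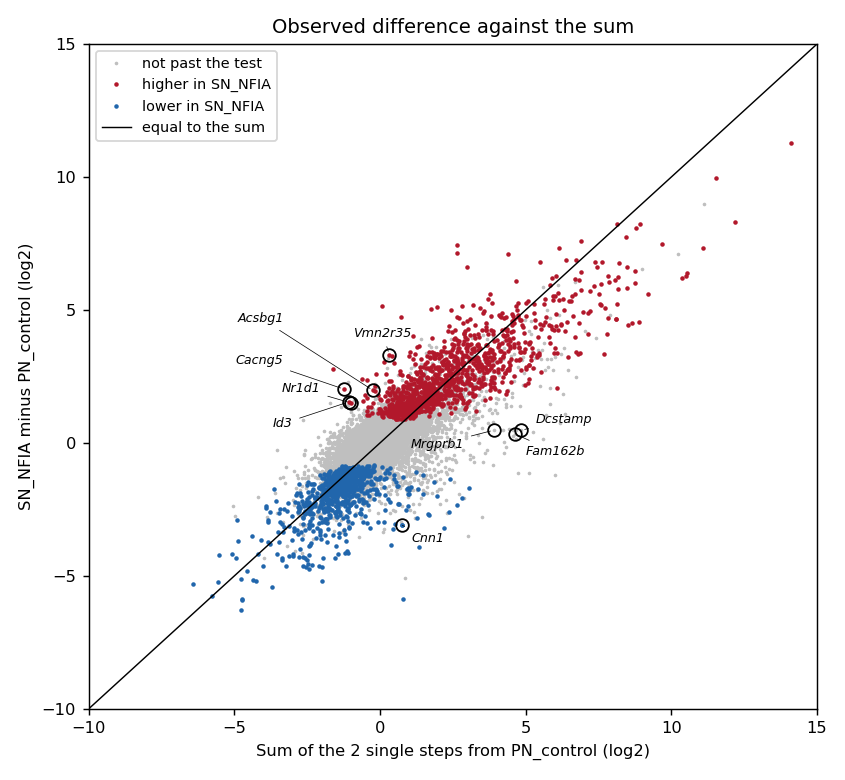
SN_NFIA minus PN_control in log2 (vertical axis) against the sum of the steps from PN_control to PN_NFIA and to SN_control (horizontal axis), for 13790 genes, with the line of equality. Both axes share the PN_control arrays, so points lie along the line in part for that reason. Red points are the 1102 genes that rose, blue points the 863 that fell, and circles mark the 5 genes above and the 4 below the sum with the smallest unadjusted p, none past the test after adjustment.

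The 5 genes above the sum with the smallest p were all short of the adjusted threshold. Id3 (chr4:136143822-136145392) stood at 3.34 and 3.21 in PN_control, 2.70 and 2.96 in PN_NFIA, 2.53 and 2.76 in SN_control and 4.75 and 4.88 in SN_NFIA. Each step alone lowered its mean, by 0.45 and 0.63, and the combination was higher than all 6 other arrays. Its excess was 2.62 ± 0.34 (adjusted p = 0.108). Over the alternatives of processing and model that kept all arrays and their groups, the adjusted p ran from 0.0828 to 0.242. Acsbg1, an acyl-CoA synthetase gene of astrocytes, stood between -0.20 and 0.61 on the 6 other arrays and at 2.18 and 2.49 in SN_NFIA, with an excess of 2.21 ± 0.37 (adjusted p = 0.187). Cacng5, for an AMPA receptor auxiliary subunit, stood at -0.96 and -1.09 in SN_NFIA, above the -3.05 and -3.05 of PN_control, with an excess of 3.26 ± 0.51 (adjusted p = 0.159). In SN_control it stood at -5.27 and -4.25, not well above background, so the size of that excess rests in part on dim values. Nr1d1, for the clock repressor REV-ERBα, was dim in 1 of 2 PN_control arrays and in both SN_control arrays, and had an excess of 2.52 ± 0.42 (adjusted p = 0.187). Vmn2r35, a vomeronasal receptor gene with close copies, was well above background in SN_NFIA only, with an excess of 3.0 ± 0.44 (adjusted p = 0.139). It passed the filter on dim probes through SN_NFIA alone, which by itself favours a positive excess. That size rests on dim signals in the other groups and is not a measured amount.

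Below the sum, 4 genes with the smallest p are described. Dcstamp, a gene of osteoclast fusion, and Mrgprb1, a mast cell receptor gene, were well above background in SN_control only, at -2.15 and -1.76 and at -2.64 and -2.71, and were dim in SN_NFIA, with PN arrays dim as well (excess -4.37 ± 0.37 and -3.43 ± 0.33). Those sizes rest on signals not well above background in 3 of the 4 groups and are not measured amounts. Fam162b was above background in PN_NFIA and SN_control and in neither far end, with an excess of -4.27 ± 0.40. For these 3 genes the far ends differed by 0.47, 0.48 and 0.34, none past the test. Cnn1, the smooth muscle calponin gene, stood at -2.61 and -2.63 in PN_control, -1.60 and -1.41 in PN_NFIA, -2.87 and -3.06 in SN_control and -5.43 and -6.01 in SN_NFIA, with an excess of -3.87 ± 0.39. It was not well above background in either SN_NFIA array, so that size is not a measured amount either. Against PN_control Cnn1 was at least 2.39-fold lower in SN_NFIA. Adjusted p of the 4 lay between 0.0725 and 0.075; over the alternatives that kept all arrays and groups it ran from 0.0508 to 0.496 for Dcstamp and from 0.0699 to 0.777 for Fam162b. Without SN_control 1 and without SN_control 2 the excess was -4.57 and -4.18 for Dcstamp and -3.39 and -3.46 for Mrgprb1. It was -4.36 and -4.19 for Fam162b and -3.78 and -3.96 for Cnn1. Dcstamp, Mrgprb1 and Fam162b passed the filter on dim probes only through the groups where they are high. Such a filter by itself favours an excess below the sum. With normexp in place of the deposited background correction their excess shrank to between -1.67 and -1.16.

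**Figure D4:**
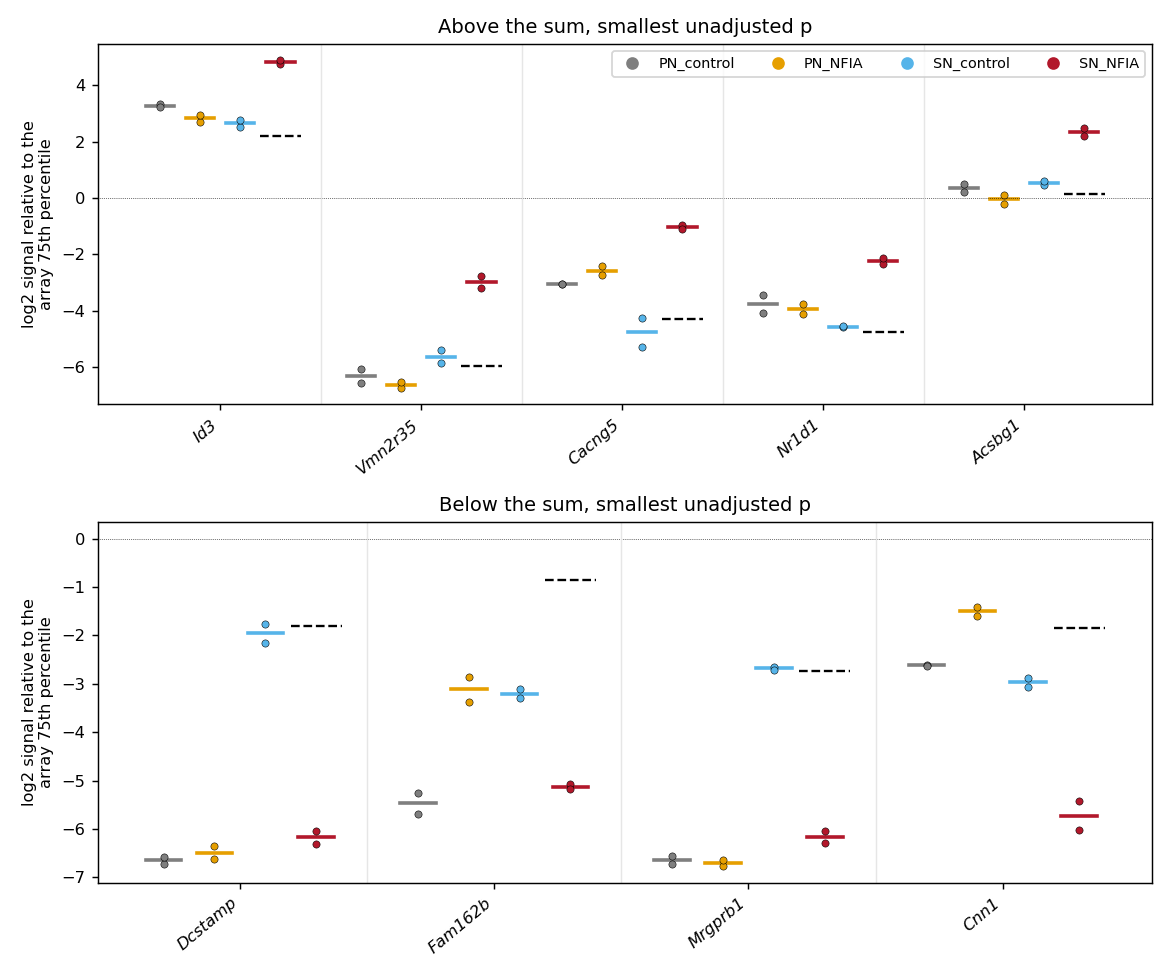
Levels (log2 signal relative to the 75th percentile of the array) of the 5 genes above (upper panel) and the 4 below the sum (lower panel) with the smallest unadjusted p, with a point per array and a bar at the mean of each group. Dashed bars mark the level that the sum of both steps gives. For Id3 the SN_NFIA arrays lie at 4.75 and 4.88, above the bar. For Cnn1 they lie at -5.43 and -6.01, below the bar but not well above background.

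Among the genes that differed between the far ends, the excess pointed in the direction of the difference for 655 of the 1102 that rose (59.4%, median excess 0.19) and for 658 of the 863 that fell (76.2%, median -0.35), against a median of 0.05 over all genes. At an unadjusted p under 0.05, 106 of the 1102 lay beyond the sum and 104 short of it; of the 863, 126 lay beyond it and 7 short of it. The estimates of the difference and of the excess have uncorrelated sampling errors only if SN_NFIA and PN_control vary alike. Replicate arrays correlated at 0.983 in PN_control and at 0.9637 in SN_NFIA. A wider spread in SN_NFIA would favour an excess in the direction of the difference, and its part here was not tested. Genes also share arrays and are not independent. The scale mattered: on unlogged signal the excess pointed in the direction of the difference for 914 of the 1102 and 376 of the 863. Of the 372 genes above the sum on the log2 scale at an unadjusted p under 0.05, 372 were above it on unlogged signal, and of the 537 below, 498 were below. Among those 537, 52 were dim on all 4 arrays of the far ends.

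Few of these genes also passed the adjusted test for a single step. Of the 1102 genes that rose, 41 also passed for NFIA in primary cells and 83 for passage in control cells, and 1005 for neither; of the 863 that fell the numbers were 0, 16 and 847. These tests have the same number of arrays as that between the far ends and share PN_control with it. Over all genes, 96 rose with passage in control cells. Each comparison was adjusted on its own, and the adjusted threshold is stricter where few genes pass. At an unadjusted p under 0.05 in limma, NFIA in primary cells had 947 genes up and 357 down. Passage in control cells had 883 and 971, against 1986 and 2253 between the far ends. The counts of adjusted calls therefore do not show that most genes needed both steps. Both SN_NFIA arrays were above all 6 other arrays for 808 of the 1102, and below all 6 for 702 of the 863. All of these genes already had SN_NFIA apart from PN_control, so the shares over all genes, 11.4% and 13.1%, are no like reference for them.

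A stricter class took genes past the test whose single steps were both under 1 in size while the far ends differed by over 2, and it held 74 genes that rose and 75 that fell. The rule bounds each step, so a large excess in this class follows from the rule and is given as a description. The 6 with the smallest p were led by H2-M11, a nonclassical histocompatibility gene with close relatives, which stood at 2.47 and 2.28 in PN_control, between 1.20 and 1.76 on the 4 intermediate arrays, and at -1.57 and -2.32 in SN_NFIA, and fell by 4.32 ± 0.33. Terc, the RNA template of telomerase, stood at 1.26 and 1.35 in PN_control, between 0.61 and 1.06 on the intermediate arrays and at -1.46 and -1.96 in SN_NFIA, and fell by 3.02 ± 0.29. Chrm4, a muscarinic receptor gene, fell by 3.39 ± 0.32, and Cpb2, for a carboxypeptidase of plasma, by 4.14 ± 0.41. Lao1, an amino acid oxidase gene, was well above background in SN_NFIA only and at least 2.1-fold higher, as was Vmn2r35, at least 2.58-fold. Both passed the filter on dim probes through SN_NFIA alone. These bounds fall short of the difference of 2 in log2, so the place of both genes in this class rests on values not well above background. Vmn2r35 missed the test without PN_control 2 and without SN_NFIA 1, where another probe of the gene was used.

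The excess was negative for all measured genes of 2 small lists, the NFI family (4 of 4, median -0.43) and the Y-linked genes (3 of 3, median -2.30), and for most genes of several lists of non-neural cells. Of 17 epithelial genes 16 had a negative excess, 12 of them at an unadjusted p under 0.05 (median -2.67); of 24 pluripotency genes 21 and 12 (median -1.71); of 22 mesenchymal genes 21 and 10 (median -1.5). Of 11 endoderm genes 9 were negative (median -1.21), of 11 ependymal genes 7, and of 9 blood, endothelial and microglial genes 6. In SN_NFIA 7 of the 17 epithelial, 5 of the 24 pluripotency and 1 of the 22 mesenchymal genes were not well above background. The excess of these lists therefore rests in part on dim signals. With normexp the median difference between the far ends was -0.61 for the epithelial and -0.58 for the pluripotency genes, against -1.10 and -1.04 without it. The median excess of these lists with normexp is not given here. Over all genes 3.89% were below the sum at an unadjusted p under 0.05, and the median excess was 0.05. Cldn6, a claudin gene of early epithelia, showed the pattern: -2.18 and -3.16 in PN_control, -0.43 and -1.71 in PN_NFIA, -2.24 and -1.93 in SN_control and -5.96 and -5.78 in SN_NFIA, dim there, with an excess of -5.39 ± 0.69 (adjusted p = 0.108). Cdh1 (excess -3.42 ± 0.47) and Pou5f1 (-3.27 ± 0.77) had the same order of groups, highest in PN_NFIA or SN_control and lowest in SN_NFIA. Dnmt3b, which is high in pluripotent cells, had an excess of -3.33 ± 0.54 (adjusted p = 0.173), at its other 2 probes -3.20 ± 0.69 and -2.95 ± 0.69. The mesenchymal genes Col1a1 and Pdgfrb differed in shape, as both were higher in SN_NFIA than in PN_control and short of the sum (excess -3.45 ± 0.73 and -2.69 ± 0.49). None of these genes passed the test of the excess after adjustment.

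Medians of the neural lists lay nearer to 0 than those of the epithelial, pluripotency and mesenchymal lists. Not all were nearer than the endoderm list (-1.21), the ependymal list (-0.45) or the blood, endothelial and microglial list (-0.57). Oligodendrocyte lineage genes had a median excess of -1.07 (10 of 16 negative) and LIN28 axis genes a lower one. Astrocyte genes had a median excess of 0.59, with 29 of 40 positive, 3 above and 2 below at an unadjusted p under 0.05. The 22 neural stem cell and radial glia genes had 19 positive and a median of 0.52; among them Hes5 dipped in the single steps, to 6.33 and 6.74 in PN_NFIA and 5.99 and 5.30 in SN_control, and stood at 6.44 and 7.23 in SN_NFIA against 7.10 and 7.08 in PN_control (excess 1.75 ± 0.52, adjusted p = 0.522). Neuronal genes had a median of -0.51 (33 of 46 negative), LIN28 axis genes -1.31 (10 of 14 negative, 4 at an unadjusted p under 0.05) and cell cycle genes -0.12 (19 of 32 negative, 0 at that threshold). The excess of Bcan was -3.91 ± 1.61, and -1.37 ± 1.06 at its other probe. That of Tnc was -4.14 ± 0.86, and -3.02 ± 0.79 at its other probe, so both genes were short of the sum. Tnc was not well above background in either PN_control array, so the size of its excess rests in part on dim values. Tnc stood at -0.36 and 0.44 in PN_NFIA and at -0.62 and 0.28 in SN_control, against 0.94 and 1.19 in SN_NFIA. Sparcl1 (-0.70 ± 1.04), Myh8 (0.09 ± 0.80) and Nfia (-0.29 ± 0.67) had intervals that include 0, which does not show that their steps add up exactly.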

How the data were processed

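RNA of 8 samples, 2 in each of 4 groups, was measured on 1-colour Agilent arrays on 1 slide. Per the file headers the scanner files were made with Agilent Feature Extraction 10.5.1.1, while the submitters' processing notes name version 10.7.3.1; they hold the deposited spot intensity. The authors deposited a value table whose log2 values, set against the scanner signals, are log2 signal relative to the array's 75th percentile, with the median of the probe over arrays subtracted. Each table column was matched to the scanner file that it correlates with best (r of at least 0.9999, all other files at most 0.3386); 1 column matched the file of its own sample and 7 that of another. Levels are the table value plus the median level of the probe over the matched files.

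Groups came from the titles. Spots flagged as outliers were left out, and so were dim probes, meaning those for which no group had both its arrays well above background. Genes with several kept probes (3644 of 13790) were represented by their brightest kept probe. limma 3.58.1 in R 4.3.3 fitted the means of the 4 groups, with Benjamini-Hochberg adjustment over 13790 genes. The genes named are the 12 largest changes each way past the test, the genes nearest to passing the test of the excess (5 above and 4 below the sum), the 4 genes with the smallest p of each list, a set of markers (some genes under these rules are not reported here), and the 6 genes with the smallest p that differed between the far ends but by under 1 in each step. The 12 each way were taken from genes whose far-end groups did not overlap. The members and lists were chosen with earlier results of these data known. Alternatives covered background correction, normalization, filters, probe choice, model and each array left out. The normexp alternative used median spot signals in place of the planned mean signals. The fit was tested on simulated data. The number of arrays limits the precision.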

Additional observations from a re-analysis of the deposited data

How the results depend on the processing

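The number of genes that rose was within 1.5 times that of the text under all processing alternatives that kept the arrays and groups, except 1775 with the replicate number as a block within each passage. The number that fell was 517 with no filter on dim probes and 1907 with that block. Leaving out 1 array gave 256 to 1418 genes that rose, 93 to 1279 that fell, 0 to 12 above the sum and 0 to 441 below it. Fits without an array applied the filter on dim probes anew, so the genes tested changed as well. The replicate number as a block over all arrays gave 1126 and 898. With normexp the median difference was smaller in size for several lists. It was 0.91 for immediate early, 2.29 for oligodendrocyte and -1.43 for forebrain genes. Deviations of arrays with the same number correlated at 0.445 between the primary groups, 0.484 between the secondary groups and -0.115 between PN_control and SN_NFIA, which does not establish a pairing.

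With scanner files as attached to the samples 0 genes rose and 0 fell, and 1340 of 1745 genes called in the text turned sign. The named differences that turned were then -0.73 for Scrg1, -0.86 for Myh8, -0.46 for Itih3, -0.62 for Ibsp, -0.35 for Ccdc80, -0.91 for Il33 and -0.69 for Vmn2r35. They were 0.83 for Nhlh2, 3.65 for Mogat2, 1.45 for Cartpt, 1.03 for Gsx2, 0.71 for Dbx1, 0.45 for Tbr1, 1.59 for Sst, 1.54 for Vmn1r197, 0.77 for Slc17a6, 0.49 for Rasgrp1, 1.11 for H2-M11, 0.94 for Chrm4, 0.84 for Terc and 1.19 for Cpb2. With groups from the source names 0 rose and 0 fell, 2 lay below the sum, and the values were -0.16 for Ecrg4, -0.72 for Myh8, -0.25 for Ccdc80 and 0.01 for Vmn1r197. Without PN_control 2 Vmn2r35 was -0.97, read from another probe, and without PN_control 1 it was 3.56. Apart from the probe for Vmn2r35, the cause of these changes was not tested.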
